A study of Mus musculus with 8 samples.

Results

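Neurexins, neuroligins and Lrrtm proteins hold the 2 sides of a synapse together, and the mRNAs of 9 of their genes (Nrxn2, Nrxn3, Nlgn1, Nlgn2, Nlgn3, Lrrtm1, Lrrtm2, Lrrtm3 and Lrrtm4) were followed here in the hippocampus of mice that lack Mbd2. The genes were chosen by symbol from the 19201 genes listed in the data, and all 9 had enough reads to be tested. RNA was sequenced in 8 libraries, 4 from wild-type mice and 4 from Mbd2-/- mice. Each library pooled the hippocampi of 2 mice aged 10 to 12 weeks. The wild-type mice were littermates of the Mbd2-/- mice, all from heterozygous parents, and the deletion was present in every tissue from conception. Mbd2 is a protein that binds methylated CG dinucleotides in DNA, and the study asked how its loss changes gene expression in the hippocampus.

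Neurexins sit on the presynaptic membrane and bind across the cleft to several families of postsynaptic partners. Neuroligins are among these partners: neuroligin 1 is found mainly at excitatory synapses, neuroligin 2 at inhibitory synapses, and neuroligin 3 at both. Lrrtm proteins are leucine-rich repeat proteins of excitatory postsynapses, and they bind neurexins or, for Lrrtm3 and Lrrtm4, glypicans as well. Mutations of several neurexin and neuroligin genes are known in autism.

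In Mbd2-/- hippocampus, 4 of the 9 genes were called lower and none was called higher. Nlgn2 fell by 20.2%, Nrxn3 by 17.8%, Nlgn3 by 11.8% and Nrxn2 by 11.5%. Nlgn1 and the 4 Lrrtm genes did not pass the test. The test was limma on log2(normalized count + 1) over 14504 genes, with a threshold of 0.05 on the Benjamini-Hochberg adjusted p, and 10.0% of all tested genes were called lower and 12.0% higher. The study lists these 4 genes as reduced on the same libraries, so that their direction here is not independent evidence. When a trend of fold change with transcript length was removed, Nlgn2 and Nrxn3 stayed past the threshold, and Nlgn3 and Nrxn2 did not.

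Sequences before annotated starts are shown for Nlgn2 and Nrxn3, which were called lower on both scales, and for Nlgn1 and Lrrtm1, which were not called on either. They are shown since CG is the dinucleotide that Mbd2 binds when it is methylated. Each is the 250 bases before an annotated start, taken from RefSeq on GRCm38.p6 and matched by symbol, printed 5′ to 3′ on the strand of the gene with CG in capitals. Where a gene had several starts, the start with the most CG is shown. For Nrxn3 it is the last of 3 starts along the plus strand, so its window lies inside the gene.
Nlgn2, chr11:69837785-69838034, minus strand: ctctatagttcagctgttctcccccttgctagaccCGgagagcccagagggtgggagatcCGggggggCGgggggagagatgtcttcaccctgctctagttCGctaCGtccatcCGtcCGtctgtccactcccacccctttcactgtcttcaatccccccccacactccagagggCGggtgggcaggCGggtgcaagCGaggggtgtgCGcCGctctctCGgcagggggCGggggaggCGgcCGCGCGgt
Nrxn3, chr12:89812233-89812482, plus strand: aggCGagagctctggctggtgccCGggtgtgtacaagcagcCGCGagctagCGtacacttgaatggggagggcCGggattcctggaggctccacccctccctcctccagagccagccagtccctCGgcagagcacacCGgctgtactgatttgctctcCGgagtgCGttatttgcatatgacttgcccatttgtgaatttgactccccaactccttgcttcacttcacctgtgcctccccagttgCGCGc
Nlgn1, chr3:26331910-26332159, minus strand: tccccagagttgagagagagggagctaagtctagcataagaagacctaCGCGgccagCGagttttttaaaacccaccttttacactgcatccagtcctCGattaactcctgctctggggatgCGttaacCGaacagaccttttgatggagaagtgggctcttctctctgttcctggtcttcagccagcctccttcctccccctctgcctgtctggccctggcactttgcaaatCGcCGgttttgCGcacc
Lrrtm1, chr6:77242227-77242476, plus strand: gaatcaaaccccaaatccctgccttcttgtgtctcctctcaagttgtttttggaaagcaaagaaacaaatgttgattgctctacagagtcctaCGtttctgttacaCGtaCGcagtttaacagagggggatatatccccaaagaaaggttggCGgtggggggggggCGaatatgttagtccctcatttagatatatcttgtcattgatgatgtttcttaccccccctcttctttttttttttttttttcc

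The Nlgn2 window held 18 CG and the Nrxn3 window 12, against 9 for Nlgn1 and 5 for Lrrtm1. The motif counted was CG, which reads the same on both strands and cannot overlap itself. Over 32851 windows of the same length the median was 6, 7.87% held none, and 21.7% held as many as that of Nlgn2. The other starts of Nrxn3 held 2 and 5, the other start of Nlgn1 held 5, the Lrrtm3 window held 6, and the windows of Lrrtm4 held 3 and 8. The counts describe the reference sequence and say nothing of methylation or of Mbd2 binding. Sequences were matched for 6 of the 9 genes, and Nrxn2, Nlgn3 and Lrrtm2 had none in the table used.

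The sequencing depth was 8087750 to 23790825 reads on genes per library, and the 9 genes had between 185 reads, for Lrrtm3, and 8457 reads, for Nrxn2, in any library. The normalized counts used throughout are reads divided by a size factor of the library, computed by the authors with DESeq2. Mbd2 itself had 295, 363, 371 and 354 normalized counts in wild-type replicates 1 to 4 and 244, 240, 339 and 217 in Mbd2-/- replicates 1 to 4. It was lower in Mbd2-/- mice (log2 fold change -0.43, SE 0.12, limma adjusted p = 0.0174), but the groups overlapped, because the library labelled Mbd2-/- replicate 3 lay within the wild-type range. The mutant allele leaves the first exon in place, so a count over the whole gene checks the genotype only in part. Without that library, the same number of synapse organizer genes, 4, was called lower. The libraries also differed in how fold change ran with transcript length. Against the wild-type mean, Spearman's rho across 14154 genes was -0.48, -0.43 and -0.48 in Mbd2-/- replicates 1 to 3 and -0.10 in replicate 4. It was between -0.07 and 0.06 in the wild-type libraries, each taken against the mean of the other wild-type libraries.

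Hippocampal tissue was recognisable in every library, since all 12 markers of hippocampal subfields were detected in each (summed normalized counts 12802 to 13139 in wild-type and 12007 to 12907 in Mbd2-/- libraries). Of these, 3 were called lower in Mbd2-/- mice (Prox1, Wfs1 and Fibcd1) and 2 higher (Tdo2 and Bok). Beside this list and those below, 10.0% of all tested genes were called lower and 12.0% higher. Markers of neighbouring tissue differed between the genotypes. All 20 choroid plexus markers were called higher in Mbd2-/- mice (sums of 24564 to 26248 against 47366 to 53947), and 10 of 12 thalamus markers were called lower (5643 to 5826 against 3870 to 4508). Of 10 neuron markers 3 were called lower (88621 to 93368 against 84323 to 92043), and 5 of 8 astrocyte, 6 of 8 oligodendrocyte, 6 of 8 microglia and 3 of 8 endothelial markers were called higher. No marker of these lists was at 0 in any library. Their part in the results that follow was not tested, and in bulk tissue fewer cells of a type cannot be told apart from less RNA per cell.

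Compared per kilobase of the longest annotated transcript, Nrxn2 was the most abundant of the 9 genes in wild-type hippocampus, at 690 ± 17.4 normalized counts per kb (SD, n = 4), followed by Nlgn2 at 565 ± 17.7. Lrrtm1 (395 ± 13.1) and Nrxn3 (387 ± 12.6) came next with overlapping ranges. Nlgn1 (320 ± 6.51) and Nlgn3 (266 ± 8.27) followed, and Lrrtm4 (144 ± 8.60) and Lrrtm2 (143 ± 8.83) could not be ordered. Lrrtm3 was the least abundant at 75.7 ± 8.84. Nrxn2 thus lay above 92.4% of tested genes per kb, and Lrrtm3 above 42.3%.

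**Figure D1:**
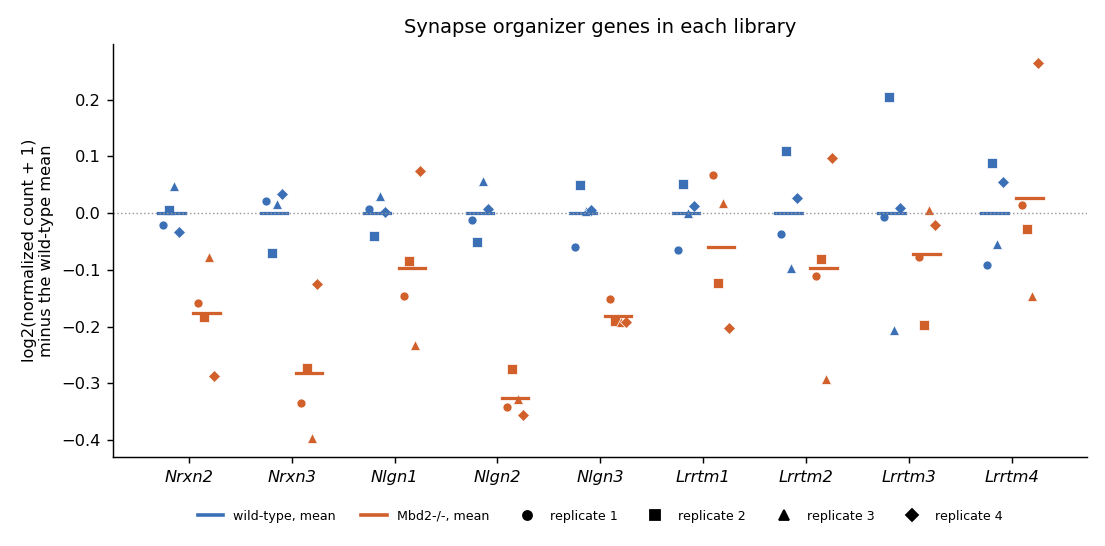
Log2(normalized count + 1) of each gene in each library, minus the wild-type mean of that gene (y axis), for 4 wild-type (blue) and 4 Mbd2-/- (orange) libraries; symbols mark the replicate and bars the group mean. All 4 Mbd2-/- libraries lie below all 4 wild-type libraries for Nrxn2, Nrxn3, Nlgn2 and Nlgn3, and the groups overlap for the other genes.

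Nlgn2, the postsynaptic partner of neurexins at inhibitory synapses, had the largest log2 fold change of the 9 genes over all 8 libraries, while without Mbd2-/- replicate 4 that of Nrxn3 was larger (-0.33 against -0.32). It had 3122, 3037, 3274 and 3162 normalized counts in wild-type replicates 1 to 4 and 2482, 2600, 2507 and 2460 in Mbd2-/- replicates 1 to 4. The highest Mbd2-/- library lay well below the lowest wild-type library. The log2 fold change was -0.33 (SE 0.05, 95% interval -0.43 to -0.23, limma adjusted p = 2.95e-04). Such separation of all 4 Mbd2-/- libraries below all 4 wild-type libraries was seen for 4 of the 9 genes and for 11.5% of all tested genes. Nlgn2 lies in mm9 at chr11:69636624-69651286 on the minus strand, a short gene of 14.7 kb.

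Of the 10 neuron markers, 3 were called lower and none higher, beside 10.0% and 12.0% of all tested genes. Syt1, the calcium sensor of synaptic vesicles, fell by 15.4% (limma adjusted p = 0.00255), and Gad1 and Gad2, which encode the enzymes that make GABA, fell by 13.8% and 17.5% (limma adjusted p = 0.00417 and 0.00228). Slc17a7, the vesicular glutamate transporter of hippocampal excitatory neurons, was at 16296 ± 159 in wild-type and 14805 ± 1461 in Mbd2-/- libraries and was not called (adjusted p = 0.0838). With the trend of fold change with transcript length removed, 5 of the 10 were called lower (Syt1, Gad1, Gad2, Slc17a7 and Tubb3, log2 fold changes -0.17, -0.19, -0.18, -0.16 and -0.21) and 1 higher, Map2 (0.22, limma adjusted p = 0.00332). On that scale 6.75% of all genes were called lower and 8.05% higher. Other interneuron genes, named after their values were seen, went both ways. Among those with transcripts under 1 kb, log2 fold changes were 0.72 for Npy, 0.43 for Cort, 0.40 for Sst, 0.37 for Pvalb and -0.41 for Tac2. The median over the 757 genes of up to 1 kb was 0.29. Calb2, which is also on the list of thalamus markers, was called lower (-0.56, limma adjusted p = 3.13e-04). The part of these genes in the Nlgn2 value was not tested.

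Nlgn3, the X-linked neuroligin, had 2178, 2350, 2277 and 2280 normalized counts in the wild-type libraries and 2043, 1990, 1986 and 1986 in the Mbd2-/- libraries. The groups did not overlap, but the gap between them was narrow beside that of Nlgn2. The log2 fold change was -0.18 (SE 0.05, 95% interval -0.28 to -0.08, limma adjusted p = 0.0130). Nlgn3 lies at chrX:98491178-98521302 on the plus strand and shares 749 of its 11008 exon bases with Med12 on the same strand, so that reads there may be counted for either gene; Med12, a subunit of the Mediator complex, was at 438 ± 18.0 and 388 ± 36.7 and was not called (adjusted p = 0.101). Xist, which is transcribed from the inactive X chromosome of females, had at most 6 reads in any library, and the Y-linked Ddx3y had at least 337 in each, although the study's methods describe tissue of males and females in balanced numbers. Of the 4 Y-linked genes examined, Uty was called higher in Mbd2-/- libraries (log2 fold change 0.27, limma adjusted p = 0.0456) and Ddx3y, Eif2s3y and Kdm5d were not called.

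Nlgn1, the neuroligin of excitatory synapses, had 1401, 1357, 1425 and 1397 normalized counts in the wild-type libraries and 1260, 1316, 1187 and 1468 in the Mbd2-/- libraries. Mbd2-/- replicate 4 was above every wild-type library and the others were below. The log2 fold change of -0.10 (95% interval -0.23 to 0.04) was not called (limma adjusted p = 0.284). Without replicate 4 it was -0.15 and was called (adjusted p = 0.0172). That fit called 2558 of all 14490 genes tested lower, against 1450 of 14504 with every library. Nlgn1 spans 702 kb at chr3:25330733-26032656 on the minus strand.

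Because a ratio within a library does not depend on its scaling, 4 ratios between members of a family were compared. The ratio of Nlgn1 to Nlgn2 was 0.449, 0.447, 0.435 and 0.442 in the wild-type libraries and 0.508, 0.506, 0.474 and 0.597 in the Mbd2-/- libraries. Every Mbd2-/- library had a higher ratio than every wild-type library, and the mean ratio was 17.2% higher. The exact two-sided permutation test gave p = 0.0286, the smallest value that 4 libraries against 4 allow. After Benjamini-Hochberg adjustment over the 4 ratios it was 0.114, which does not pass the threshold. A ratio that alone among the 4 separates the groups cannot pass after this adjustment, so the adjusted value could not decide. Per kb, Nlgn2 made up 49.1 ± 0.662% of the summed neuroligin level in wild-type and 45.8 ± 1.52% in Mbd2-/- libraries, while Nlgn1 made up 27.8 ± 0.333% and 30.4 ± 2.05% and Nlgn3 23.1 ± 0.858% and 23.8 ± 0.775% (SD over 4 libraries).

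**Figure D2:**
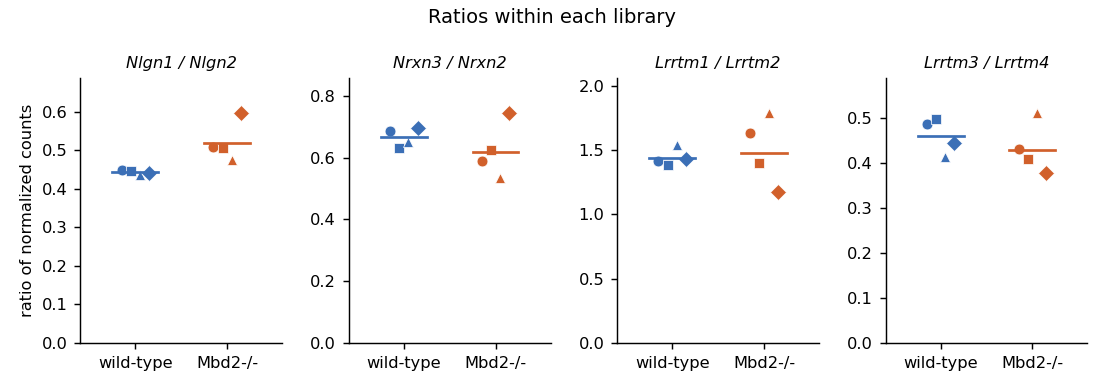
Ratio of the normalized counts of a pair of genes (y axis, from 0) in each of 4 wild-type (blue) and 4 Mbd2-/- (orange) libraries, with symbols for replicates 1 (circle), 2 (square), 3 (triangle) and 4 (diamond) and bars at the mean taken on the log2 scale. The Nlgn1 to Nlgn2 ratio lies between 0.435 and 0.449 in wild-type and between 0.474 and 0.597 in Mbd2-/- libraries, and the groups overlap for the other ratios.

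Of the presynaptic neurexins, Nrxn3 was lower by the larger amount. It had 3109, 2915, 3097 and 3134 normalized counts in the wild-type libraries and 2429, 2535, 2325 and 2808 in the Mbd2-/- libraries. All Mbd2-/- libraries were below the wild-type range, with replicate 4 closest to it. The log2 fold change was -0.28 (SE 0.06, 95% interval -0.41 to -0.16, limma adjusted p = 0.00312). Nrxn3 is among the very long genes, spanning 1612 kb at chr12:89961320-91573375 on the plus strand with 14 annotated transcripts, and a count over the gene does not separate its long alpha and short beta forms.

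Nrxn2 had 4534, 4617, 4755 and 4492 normalized counts in the wild-type libraries and 4121, 4052, 4356 and 3767 in the Mbd2-/- libraries. Here replicate 4 was the lowest, where for Nrxn3 it was the highest of the Mbd2-/- libraries. The log2 fold change was -0.18 (SE 0.05, 95% interval -0.28 to -0.07, limma adjusted p = 0.0208), and the call was lost when any of 4 single libraries was left out. Nrxn2 lies at chr19:6418731-6544169 on the plus strand and shares 669 of its 13816 exon bases with Slc22a12 on the opposite strand, a gene with only 9 to 38 reads per library. The ratio of Nrxn3 to Nrxn2 was 0.666 in wild-type and 0.619 in Mbd2-/- libraries on average, with overlapping groups (difference -0.11 on the log2 scale, exact permutation p = 0.343, adjusted p = 0.571).

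Of the Lrrtm genes, none passed the test. Lrrtm1 had 1118, 1211, 1170 and 1180 normalized counts in the wild-type libraries and 1225, 1074, 1184 and 1016 in the Mbd2-/- libraries, on both sides of the wild-type range (log2 fold change -0.06, 95% interval -0.19 to 0.07). Lrrtm2, a further ligand of neurexins, had 790, 874, 758 and 825 against 751, 766, 661 and 867 (-0.10, interval -0.26 to 0.06). Without Mbd2-/- replicate 4, Lrrtm2 was at -0.16 and was called (limma adjusted p = 0.0455), in a fit that called 2558 of all 14490 genes lower. The Mbd2-/- values of Lrrtm1 thus lay within, above and below the wild-type range, and those of Lrrtm2 within and below it. Lrrtm3 had 292, 339, 254 and 295 against 278, 256, 295 and 289 (-0.07, interval -0.26 to 0.11). Lrrtm4, which binds glypicans as well as neurexins, had 600, 679, 615 and 664 against 645, 626, 577 and 768 (0.03, interval -0.14 to 0.19). The intervals of Lrrtm1, Lrrtm2 and Lrrtm3 include falls as large as those of Nrxn2 and Nlgn3, so the data do not show that these genes were unaffected.

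Ratios within the Lrrtm family did not separate the groups. Lrrtm1 to Lrrtm2 was 1.44 and 1.48 on average (exact permutation p = 0.857, adjusted p = 0.857), and Lrrtm3 to Lrrtm4 was 0.460 and 0.429 (exact permutation p = 0.429, adjusted p = 0.571). Per kb, Lrrtm1 made up 52.2 ± 1.27% of the summed Lrrtm level in wild-type and 51.8 ± 4.11% in Mbd2-/- mice (SD over 4 libraries).

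Lrrtm1, Lrrtm2 and Lrrtm3 lie inside alpha-catenin genes, on the opposite strand and with no exon base in common. Lrrtm1 (chr6:77192683-77207785) is inside Ctnna2, Lrrtm2 (chr18:35368665-35374678) inside Ctnna1 and Lrrtm3 (chr10:63391220-63553025) inside Ctnna3. None of the host genes passed the test (log2 fold changes 0.04, 0.10 and -0.07, limma adjusted p = 0.567, 0.340 and 0.775). Lrrtm4 (chr6:79968871-80760137) shares 1543 of 6147 exon bases with the opposite-strand gene Gm4409, which is not analysed here.

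**Figure D3:**
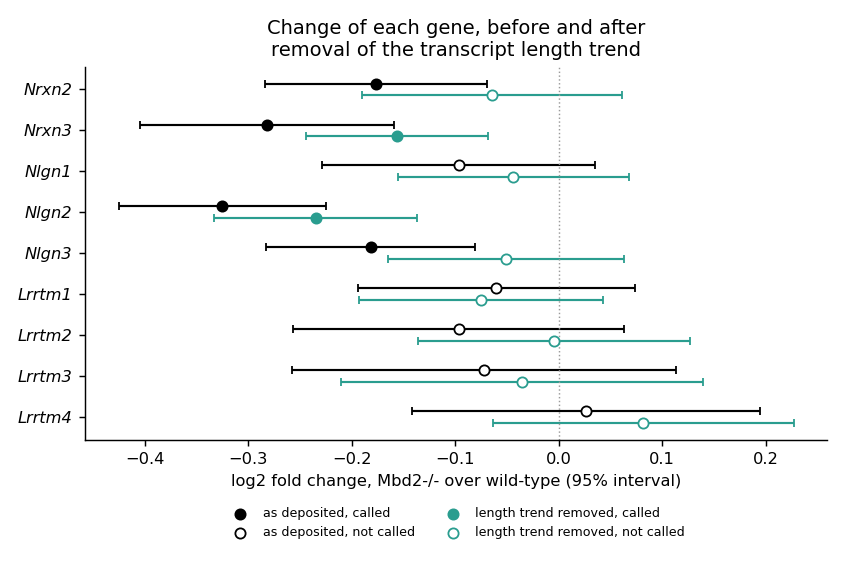
Log2 fold change of each gene, Mbd2-/- over wild-type, with its 95% interval (x axis), as deposited (black) and after the transcript length trend was removed within each library (green); filled points passed the limma test at an adjusted p under 0.05. Nlgn2 and Nrxn3 are filled on both scales, Nrxn2 and Nlgn3 on the deposited scale alone.

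The 4 genes called lower have long transcripts of 5568 to 8541 bases, against 2958 to 5665 bases for the 5 others, and the median over the 14154 genes with a length was 3189 bases. Long transcripts were lower in Mbd2-/- libraries as a whole: the median log2 fold change was 0.29 over 757 genes of up to 1 kb and -0.14 over 413 genes between 7 and 8 kb. With the trend removed within each library, the log2 fold change of Nlgn2 was -0.24 (95% interval -0.33 to -0.14, limma adjusted p = 0.00232) and that of Nrxn3 -0.16 (-0.24 to -0.07, adjusted p = 0.0171), and both still separated the groups. Nrxn2 came to -0.06 (-0.19 to 0.06, adjusted p = 0.515) and Nlgn3 to -0.05 (-0.17 to 0.06, adjusted p = 0.578), with overlapping groups. On that scale 6.75% of the genes were called lower and 8.05% higher.

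In Mbd2-/- replicate 4, which had little of the trend, the deviation from the wild-type mean as deposited was -0.36 for Nlgn2, -0.29 for Nrxn2, -0.20 for Lrrtm1, -0.19 for Nlgn3, -0.13 for Nrxn3 and -0.02 for Lrrtm3, and 0.07 for Nlgn1, 0.10 for Lrrtm2 and 0.27 for Lrrtm4. The 9 genes thus lay on both sides of 0 in this library. After the correction, Nlgn2 was at -0.22, -0.18, -0.19 and -0.34 in Mbd2-/- replicates 1 to 4 and Nrxn3 at -0.16, -0.14, -0.19 and -0.14, so each library showed the fall. Nrxn2 was at -0.01, -0.07, 0.10 and -0.28 and Nlgn3 at 0.04, -0.05, 0.02 and -0.21. For both genes replicate 4 was the lowest, and for Nrxn2 replicate 2 also lay below the lowest wild-type library, which was at -0.03.

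**Figure D4:**
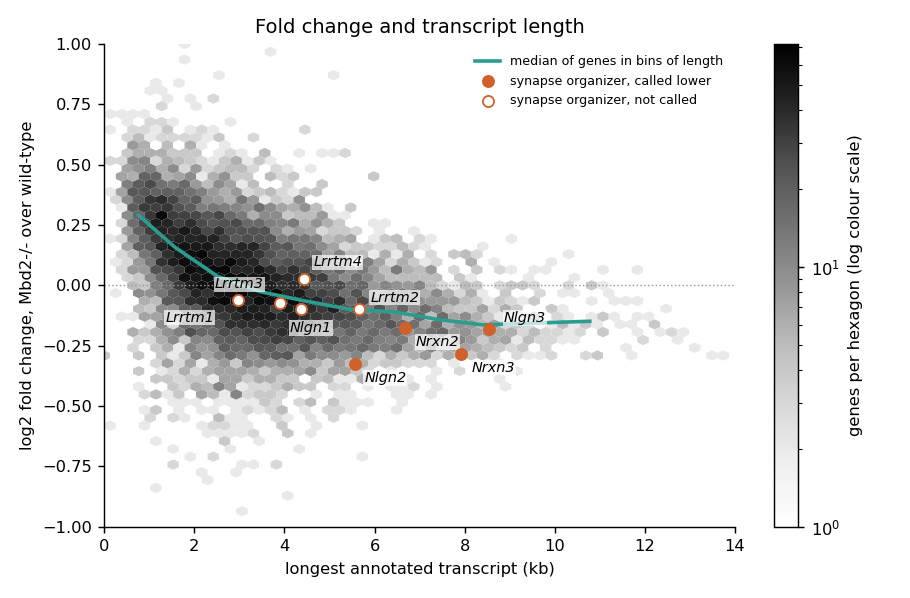
Log2 fold change, Mbd2-/- over wild-type (y axis), against the longest annotated transcript in kb (x axis) for all tested genes with a length (grey hexagons, darker for more genes; a few genes lie outside the axes), with the median in bins of length (green line) and the 9 synapse organizer genes (orange; filled when called lower). Nlgn2 and Nrxn3 lie below the line, and Nlgn3 and Nrxn2 lie closer to it.

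The genes whose profile over the 8 libraries was most like that of each called member, by the root mean square difference of log2 deviations from the wild-type mean, were the following. For Nlgn2 they were Kcnc1 (0.03), Celsr2 (0.03) and Slc12a5 (0.03), a potassium channel, an adhesion receptor and the neuronal potassium chloride cotransporter. For Nrxn3 they were Ncoa3, Scn8a and Aak1 (0.02 to 0.03), for Nlgn3 App, Dscam and Trpc4 (0.02 to 0.03), and for Nrxn2 Usp19, Clip2 and Slc8a2 (0.01 to 0.02). With profiles this close, all 12 were called lower as well. Nlgn1 was closest to Dock10, Pcnx4 and Nbea, Lrrtm1 to Eml3, Dcakd and Acbd6, Lrrtm2 to Fbxo11, Ttll7 and Rab9b, Lrrtm3 to Trim25, March5 and Cstf2, and Lrrtm4 to Lrrc1, Gmfb and Ldlrad3, none of which was called.

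Ligands of neurexins, intracellular adaptors and other organizers of synapses were examined as 76 genes in 5 lists, of which 73 were tested. Of these, 22 were called lower and 1 higher, beside 10.0% and 12.0% of all tested genes. The median log2 fold change was -0.13 against -9.1e-05 over all tested genes. With the length trend removed, 14 of 70 were called lower and 2 higher, beside 6.75% and 8.05% of all genes, and the median was -0.07. Without Mbd2-/- replicate 4, 37 were called lower, beside 2558 of all 14490 genes tested, and without wild-type replicate 3, 14 were called lower, beside 880 of all 14498, so that these counts moved with those over all genes.

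Among 17 neurexin ligands tested, 7 were called lower and none higher, and 7 were called lower with the trend removed, beside 10.0% and 6.75% of all genes. With the trend removed, the neurexophilin gene Nxph3 entered (adjusted p = 0.0214) and the delta receptor gene Grid1 left (adjusted p = 0.210), both named after their values were seen. The largest changes among the called ligands were those of Cbln1 and Cbln2, cerebellins, which are secreted proteins that bridge neurexins to delta glutamate receptors. Cbln1 had 67.3 ± 5.26 normalized counts in wild-type and 45.1 ± 11.9 in Mbd2-/- libraries (log2 fold change -0.60, limma adjusted p = 0.0240), and Cbln2 had 167 ± 10.4 and 134 ± 9.41 (-0.32, adjusted p = 0.0219). Of the other cerebellins, Cbln4 was not called (-0.23, adjusted p = 0.175), and Cbln3, at a mean of 6.30 in wild-type and 11.0 in Mbd2-/- libraries, had too few counts to be tested. Clstn1, a calsyntenin, went from 12919 ± 229 to 10642 ± 474 (-0.28, adjusted p = 5.05e-04), and Clstn3 fell by 0.28 on the log2 scale (adjusted p = 0.00277). The thalamus markers, also lower, are given above, and their part in these values was not tested.

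Of 12 adaptors inside the cell, 2 were called lower and 1 higher, and with the trend removed 1 was called lower and 2 higher. These counts are near the shares over all genes (10.0% lower and 12.0% higher, and 6.75% and 8.05% with the trend removed) and are no result about the list. Lhfpl4, which links neuroligin 2 to GABA-A receptors, went from 1611 ± 67.4 to 1303 ± 51.9 (log2 fold change -0.31, limma adjusted p = 0.00112), and was called with the trend removed too (-0.24, adjusted p = 0.00361). Cask, a scaffold that binds the tails of neurexins, fell by 0.19 (adjusted p = 0.0198) but was not called with the trend removed (adjusted p = 0.435). Dlg4 encodes PSD-95, the scaffold of excitatory postsynapses and a partner of neuroligin 1. It went up from 10783 ± 229 to 12148 ± 562 (log2 fold change 0.17, limma adjusted p = 0.0131) and was called on both scales. The call was lost when Mbd2-/- replicate 2 or wild-type replicate 4 was left out. Iqsec3, an exchange factor of inhibitory synapses, was not called as deposited (0.10, adjusted p = 0.142) and was higher with the trend removed (0.23, adjusted p = 0.00157). Neither Mdga1 nor Mdga2, whose proteins block neuroligins from binding neurexins, passed the test (both -0.10), and neither did any of the 3 Khdrbs genes, which regulate neurexin splicing (0.05 to 0.08).

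Among 39 other organizers, 13 were called lower and none higher, and 6 of 36 were called lower with the trend removed, beside 10.0% and 6.75% of all genes. Ntng1, a netrin-G that binds Lrrc4c, went from 520 ± 17.3 to 389 ± 22.9 (log2 fold change -0.42, limma adjusted p = 5.36e-04); it is also on the list of thalamus markers. The teneurin genes Tenm1 (-0.31, adjusted p = 0.0212) and Tenm4 (-0.30, adjusted p = 0.00217) followed. With the trend removed Tenm4 was not called (-0.15, adjusted p = 0.0509), and Tenm1 had no matched length and was not tested. Adgrl1, a latrophilin that binds teneurins and neurexins, went from 9389 ± 390 to 8151 ± 206 (-0.20, adjusted p = 0.00488) and was not called with the trend removed (adjusted p = 0.333).

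**Figure D5:**
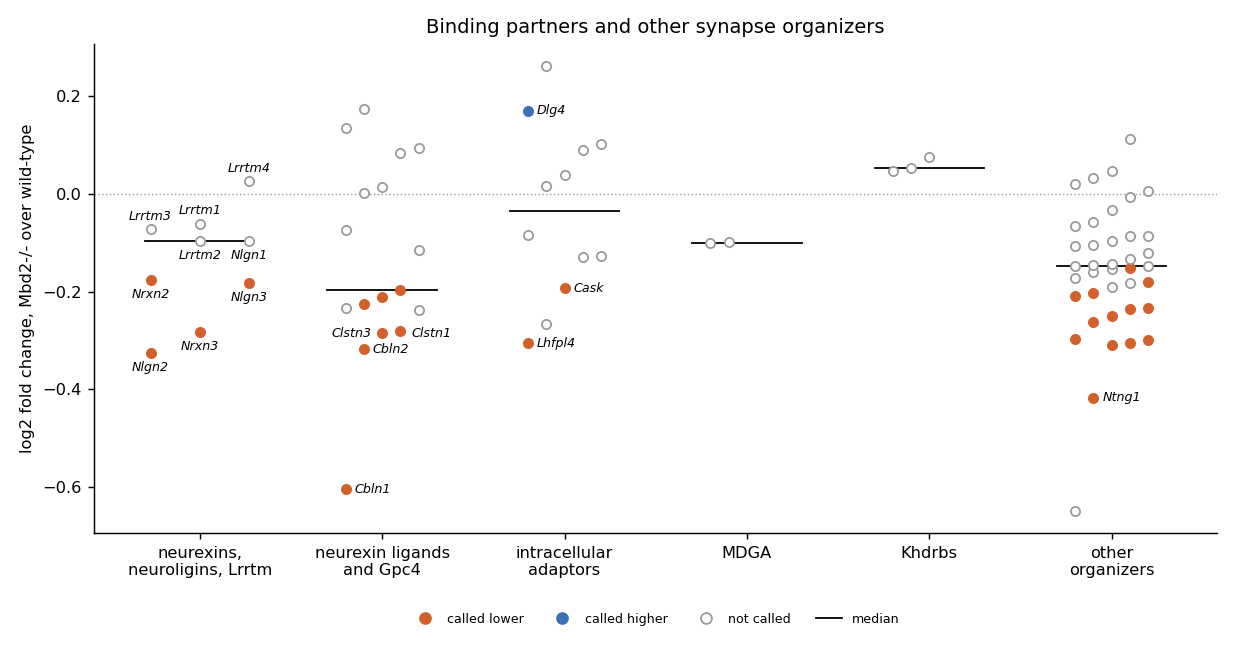
Log2 fold change, Mbd2-/- over wild-type (y axis), of the 9 synapse organizer genes and of the 73 tested genes of 5 lists; each point is a gene, orange when called lower, blue when called higher and open when not called, and bars are medians. Among neurexin ligands 7 of 17 are called lower, and Dlg4 is the single gene called higher.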

How the data were processed

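Mouse hippocampal RNA was sequenced in 8 libraries (4 wild-type, 4 Mbd2-/-, each a pool of 2 mice) after ribosomal RNA depletion, as paired ends of 100 bases. Per the processing notes, the authors took out duplicate reads, used STAR for alignment to mm9 and normalized with DESeq2; versions, the counting tool and its use of strand are not given in the sources used here. The deposited signal is a normalized count: gene reads over the size factor of their library. The authors' own comparison (mean, log2 fold change, standard error, test statistic and p-values) is deposited beside it and was not used. Taking the smallest value above 0 in a library as 1 read gave whole reads for 100% of values (within 0.01 of a read), which served alternative count tests. Totals cover counting error only, since such reads are not independent molecules.

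Genes with a mean of at least 10 normalized counts were tested with limma 3.58.1 (R 4.3.3, trend and robust moderation) on log2(normalized count + 1), with a threshold of 0.05 on the Benjamini-Hochberg adjusted p. A fold change on this scale understates that of genes with few counts. Percent changes come from these log2 fold changes, and ± is the SD over libraries. Transcript length, from GENCODE vM1 on mm9, was known for 94.1% of symbols; its trend was removed from each library by lowess with a span of 0.3. Ratios were tested by exact two-sided permutation over libraries. No libraries were duplicates, since replicates differed by 1.92 to 14.1 times the counting variance. Alternatives were edgeR 4.0.16, DESeq2 1.42.0, limma-voom, TMM and upper quartile scaling, a pseudocount of 5, no filter, a replicate block and each library left out. The tests were checked on simulated data.

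The genes and lists were chosen with earlier results of these data known. Beside the 9 genes, the text names Mbd2, the host genes, the gene with the highest mean count and up to 3 called genes with the largest change in each direction per list, the 3 genes closest in profile to each gene, and markers, overlapping genes and a few list members that bear on a result, the last chosen after their values were seen.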

Additional observations from a re-analysis of the deposited data

Results flagged for a closer look

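Nlgn3 was unusually even in the Mbd2-/- group apart from a single library. Mbd2-/- replicate 1 had 2043 normalized counts, and the other 3 libraries lay between 1986 and 1990. The gap took up 0.931 of the range of the group, above Dixon's 95% critical value for 4 samples. In all, 26 groups were examined in this way, and chance alone marks about 1 in 20.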

How the results depend on the processing

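DESeq2, edgeR, limma-voom, TMM and upper quartile scaling, a pseudocount of 5, no filter on low values and the replicate block each left 4 of the 9 genes called lower and none higher. Removing the length trend left 2. With a library left out, 3 to 6 were called lower: 6 without Mbd2-/- replicate 4, which added Nlgn1 and Lrrtm2 (adjusted p = 0.0455), and 3 without Mbd2-/- replicate 2 or wild-type replicates 1, 2 or 3. Over all genes, the lower calls went from 1450 to 2558 without Mbd2-/- replicate 4. In the fits that called 3 of the 9, they went to between 868 and 1053. With a library left out, Nlgn2, Nrxn3 and Nlgn3 were called in all 8 fits and Nrxn2 in 4 (adjusted p 0.00701 to 0.0745). Lrrtm4 was never called, and its log2 fold change ran from -0.05 to 0.08. Of the partner and other organizer genes, 14 of the 70 tested with the length trend removed were called lower and 2 higher. With a library left out 14 to 37 were lower and 0 to 4 higher. The cause was not tested. Without Mbd2-/- replicate 2 or wild-type replicate 4, the higher call of Dlg4 was lost. Mbd2 was called in 5 of 8 such fits. The Nlgn1 to Nlgn2 ratio kept its direction, with differences of 0.16 to 0.27 (log2) with a library left out and 0.19 with the trend removed, and its adjusted p was at least 0.0571 in each of these.

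Replicate numbers did not pair the libraries: deviations from the group mean correlated at -0.10, -0.06, 0.07 and 0.04 for numbers 1 to 4. With the replicate block 4 of the 9 genes and 23 partner genes were called lower. In the paired form of the ratio test the smallest p that 4 pairs allow is 0.125, above the threshold. Each group has 4 pools, and the spread between them, more than depth, sets the precision: the standard errors were 0.05 to 0.09 on the log2 scale for the 9 genes.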
